A study of Rattus norvegicus with 30 samples.

Results

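The transcripts of 9 genes of amyloid and tau metabolism were examined by RNA-seq in the brains of 30 male rats: App, Bace1, Psen2, Apoe, Clu, Sorl1, Mme, Ide and Mapt. They are defined by gene symbol and are 9 of the 17134 genes measured. Every one was detected in every rat, and all 9 passed the filter on low values (a mean of at least 1 normalized count in the rats compared).

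All rats were Sprague Dawley males on a normal diet, 10 per group. WT rats express rat amylin, and HIP rats express human amylin, which forms amyloid, in the β-cells of the pancreas in addition to rat amylin. AKO rats lack rat amylin. HIP and WT rats were 15 to 16 months old, while the age of the sequenced AKO rats is not given in the sources used here, where ages of AKO rats belong to other experiments. The HIP transgene acts in the pancreas and not in the brain, and HIP rats develop diabetes with age. Of the AKO rats, 4 carry names with KAH and 6 carry names with AKO, a distinction that the sources used here do not explain. Iapp, the amylin gene, is not analysed here, so the genotypes were not checked on the targeted gene.

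App encodes the amyloid precursor protein. β-secretase (Bace1) and then γ-secretase, with a presenilin such as Psen2 as its catalytic subunit, cut this protein to release the amyloid β peptide (Aβ). Sorl1 sorts the precursor away from the compartments where it is cut, neprilysin (Mme) and the insulin-degrading enzyme (Ide) degrade Aβ, and the lipoproteins apolipoprotein E (Apoe) and clusterin (Clu) bind it. Ide also degrades amylin. Mapt encodes tau, the microtubule-binding protein of axons that aggregates in Alzheimer's disease. In brain, App, Bace1 and Mapt transcripts are abundant in neurons, and Apoe and Clu transcripts are abundant in astrocytes.

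Upstream sequence of Apoe and Bace1 is shown because these genes stand for the 2 patterns in the data: Apoe and Clu varied together among rats, as did App, Bace1 and Mapt. RefSeq (build GRCr8) gave windows for 7 of the 9 genes and none for Mapt and Clu. Each window shown holds the 250 bases before an annotated transcription start, 5′ to 3′, and capitals mark every match to the motifs listed after it.
Apoe, chr1:88484700-88484949, minus strand: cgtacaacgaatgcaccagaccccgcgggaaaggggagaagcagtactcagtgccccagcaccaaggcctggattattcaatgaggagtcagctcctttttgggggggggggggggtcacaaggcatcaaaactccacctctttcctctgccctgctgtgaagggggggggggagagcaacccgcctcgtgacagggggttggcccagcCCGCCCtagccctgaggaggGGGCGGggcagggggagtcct
Bace1, chr8:55038592-55038841, plus strand: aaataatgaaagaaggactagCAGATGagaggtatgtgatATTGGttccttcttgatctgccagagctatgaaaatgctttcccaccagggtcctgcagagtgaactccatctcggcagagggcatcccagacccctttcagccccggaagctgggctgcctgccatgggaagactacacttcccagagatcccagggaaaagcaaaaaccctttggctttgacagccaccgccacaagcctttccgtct
The motifs searched on both strands were the SP1 box GGGCGG, the TATA box TATAAA, the CCAAT box CCAAT, the E-box CANNTG, the AP-2 site GCCNNNGGC and the cyclic AMP response element TGACGTCA. The Apoe window held 2 SP1 boxes, 1 on each strand, and the Bace1 window held 1 CCAAT box on the opposite strand and 1 E-box. Among 33469 rat windows of this length, 30.5% held an SP1 box, 34.0% a CCAAT box and 65.5% an E-box. Of the 7 genes, 4 had an SP1 box in a window, 6 an E-box, 2 a CCAAT box, 1 an AP-2 site, and none a TATA box or a cyclic AMP response element. Apoe had 3 of the 9 windows, and some of them overlap. The Apoe window shown lies within the annotated gene. The one just upstream of the gene, chr1:88485817-88486066, held 0 SP1 boxes and 3 E-boxes. The GC content of the 9 windows was 51.6% to 78.4%, and the median of all windows was 51.2%. These matches describe the sequence and were not tied to the expression values.

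The deposited values are read counts normalized by the authors with DESeq2, with totals of 15.4 to 17.98 M per rat and estimated depths of 12.9 to 23.6 M reads on genes. At these depths the scarcest of the genes, Mme, rested on an estimated 10.998 reads or more per rat, and each of the other genes on at least 166 reads. Neuron marker levels (the mean log2 of 6 marker genes) were 13.3 to 14.0 across the 30 rats, but the libraries differed in the brain regions they contained. WT rat 10RT43 had a cerebellum marker level of 13.2 and the lowest neocortex level, 4.03, and HIP rat 12RT23 had a cerebellum level of 10.1, against 4.78 or less in the other rats. HIP rat 10RT46 had a pineal marker level of 10.2 and a choroid plexus level of 9.09, and AKO rat 7AKO19 had a choroid plexus level of 7.04. Of the other 26 rats, 10 (3 WT, 3 HIP and 4 AKO) had olfactory bulb marker levels of 6.23 to 9.26 and 16 had levels of 3.12 to 4.85. The tissue is labelled frontal cortex, and in bulk tissue fewer cells of a type and less RNA per cell cannot be told apart.

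**Figure D1:**
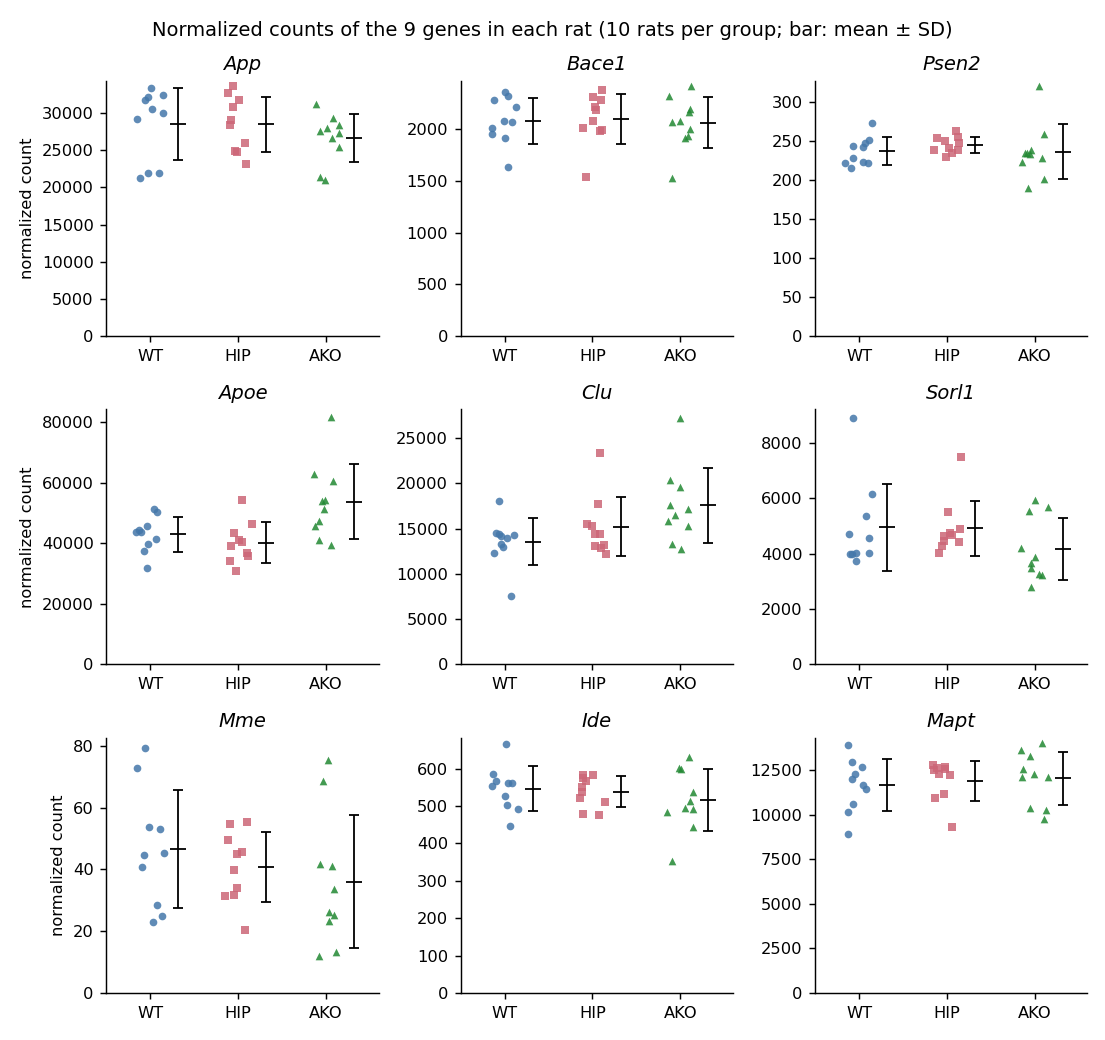
Normalized counts (vertical axis, from 0) of each gene in each of the 30 rats, by group (horizontal axis); points are rats and bars are the mean ± SD of 10 rats. The groups overlap for every gene, and the AKO points of Apoe and Clu reach highest.

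Differences between groups were tested with limma on log2(normalized count + 1) over all genes, with Benjamini-Hochberg adjustment. Between HIP and WT rats, none of the 9 genes (0) reached an unadjusted p under 0.05, against 2.57% of the 17085 genes tested, and no gene of the table had an adjusted p under 0.05 (0%). In AKO vs. WT rats, 2 of the 9 genes, Apoe and Clu, had an unadjusted p under 0.05, against 9.34% of 17058 genes, and both were higher in AKO rats. In HIP vs. AKO rats, 1 of the 9, Apoe, had an unadjusted p under 0.05, against 12.7% of 17092 genes, and it was lower in HIP rats. None of the 9 had an adjusted p under 0.05 in the comparisons with AKO rats, where 0.0997% (AKO vs. WT) and 0.17% (HIP vs. AKO) of all genes did. These shares for the 9 genes are small counts beside the background and are not a result about the set. The comparisons share their rats in pairs, so their values are given side by side.

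**Figure D2:**
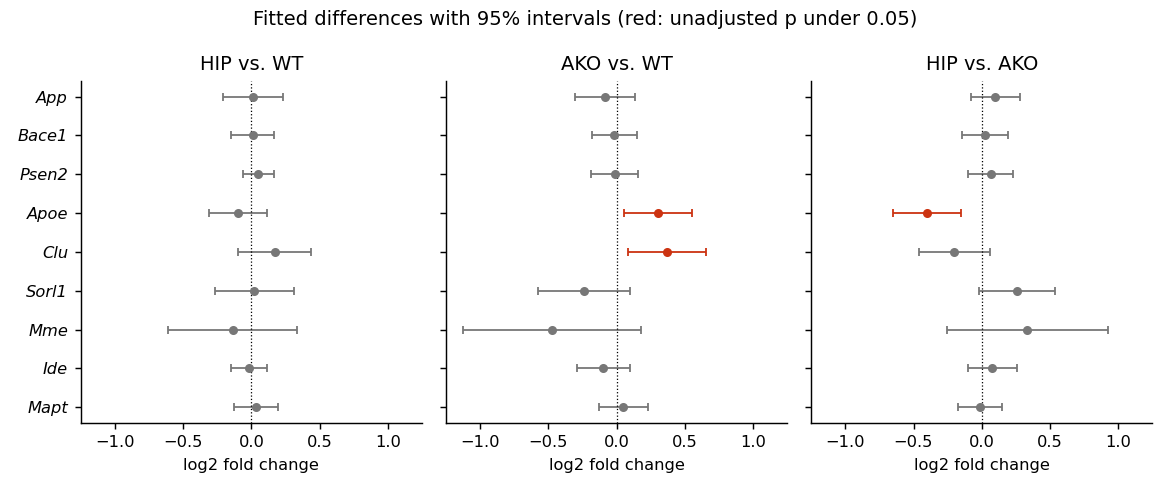
Log2 fold change of each gene (horizontal axis) with its 95% interval in HIP vs. WT, AKO vs. WT and HIP vs. AKO rats; red marks an unadjusted p under 0.05. Apoe and Clu in AKO vs. WT and Apoe in HIP vs. AKO are the 3 intervals that do not include 0.

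Apoe, the main lipid carrier of the brain, had its highest median and mean in AKO rats. Its normalized count had a lowest, median and highest value of 31944, 43752 and 51237 in WT rats, of 30774, 39738 and 54300 in HIP rats, and of 39417, 52597 and 81606 in AKO rats. The groups overlapped, but 6 of 10 AKO rats were above every WT rat and 5 of 10 HIP rats were below every AKO rat. The means were 42969 ± 5729 (SD, n = 10) in WT, 40220 ± 6678 in HIP and 53768 ± 12422 in AKO rats. In AKO vs. WT rats the log2 fold change was 0.30 ± 0.12 (SE; 95% interval 0.05 to 0.55; limma p = 0.0199, adjusted p = 0.436), and a two-sided permutation test gave p = 0.0153. In HIP vs. AKO rats it was -0.40 ± 0.12 (-0.65 to -0.16; limma p = 0.00270, adjusted p = 0.190; permutation p = 0.00349). In HIP vs. WT rats it was -0.10 (-0.31 to 0.11; limma p = 0.337), and without the rats 10RT43 and 10RT46 it was -0.20 (p = 0.0237). These were the lowest WT rat and the highest HIP rat in Apoe, so leaving them out moves the value downward.

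Clu, a secreted chaperone carried on lipoproteins, had its highest value in the same AKO rat as Apoe, 6KAH98. The lowest, median and highest normalized counts were 7521, 14091 and 17998 in WT rats, 12143, 14408 and 23377 in HIP rats, and 12769, 16857 and 27174 in AKO rats. Only 3 of 10 AKO rats were above every WT rat, while 8 of 10 were above the WT median. In AKO vs. WT rats the log2 fold change was 0.37 ± 0.14 (SE; 0.08 to 0.66; limma p = 0.0137, adjusted p = 0.396; permutation p = 0.0103). It was 0.17 (-0.10 to 0.44; limma p = 0.203) in HIP vs. WT rats and -0.20 (-0.46 to 0.06; limma p = 0.125) in HIP vs. AKO rats. The HIP vs. WT value rested on 10RT43, the lowest WT rat, and 10RT46, the highest HIP rat: without them it was 0.01 (p = 0.920). The HIP vs. AKO value without 10RT46 and 7AKO19 was -0.28 (p = 0.0287).

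Some markers of cell types also differed between the groups. The neuron marker level was 13.3 to 13.9 (median 13.5) in AKO rats, 13.4 to 14.0 (median 13.8) in WT rats and 13.3 to 14.0 (median 13.8) in HIP rats, and of the 6 neuron markers 2, Snap25 and Eno2, had an unadjusted p under 0.05 in AKO vs. WT rats, both lower (limma log2 fold changes -0.30 and -0.17). The microglia marker Csf1r was higher in AKO than in WT rats at that threshold (0.31), none of the 6 microglia markers was lower, and the microglia marker level was 8.08 to 9.55 in AKO and 8.32 to 9.38 in WT rats. None of 6 astrocyte markers passed in AKO vs. WT rats. In HIP vs. AKO rats, Snap25 was higher (0.33, p = 0.0118), the microglia marker Csf1r was lower (-0.30) and another, Tmem119, was higher (0.52), at unadjusted limma p-values under 0.05. Gfap, an astrocyte marker that rises in reactive astrocytes, was lower in HIP than in AKO rats (-0.49, limma p = 0.0275). It was the only 1 of the 6 astrocyte markers to pass there. Of the 6, 4 were higher in HIP rats, and the median log2 fold change was 0.04. With the neuron marker level as a covariate, Apoe was 0.24 (p = 0.0739) in AKO vs. WT and -0.23 (p = 0.0509) in HIP vs. AKO rats, and Clu was 0.40 (p = 0.0164) and -0.02 (p = 0.897). With the microglia marker level instead, Apoe was 0.27 (p = 0.00854) and -0.39 (p = 0.00159), and Clu was 0.33 (p = 0.00880) and -0.19 (p = 0.138).

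App, the precursor gene, did not differ between the groups beyond its spread. The lowest, median and highest normalized counts were 21218, 30332 and 33417 in WT rats, 23219, 28686 and 33698 in HIP rats, and 20969, 27482 and 31271 in AKO rats. The values spread widely within each group, and 1 of 10 AKO rats was above the WT median. The log2 fold change was 0.01 (95% interval -0.21 to 0.23) in HIP vs. WT, -0.09 (-0.30 to 0.13) in AKO vs. WT and 0.10 (-0.08 to 0.28) in HIP vs. AKO rats, with limma p = 0.910, 0.423 and 0.270.

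Of the secretase genes, Bace1 had lowest, median and highest normalized counts of 1631, 2078 and 2355 in WT rats, 1538, 2132 and 2374 in HIP rats, and 1527, 2076 and 2421 in AKO rats. The medians lay within the spread of each group, and all 3 groups overlapped almost fully. Its log2 fold changes were 0.01 (-0.15 to 0.17) in HIP vs. WT, -0.02 (-0.18 to 0.15) in AKO vs. WT and 0.02 (-0.15 to 0.19) in HIP vs. AKO rats. Psen2 had lowest, median and highest normalized counts of 216, 236 and 274 in WT rats, 229, 245 and 263 in HIP rats, and 189.5, 235 and 321 in AKO rats. The highest Psen2 value was that of AKO rat 4KAH27, the rat with the lowest astrocyte (11.3), microglia (8.08) and endothelium (8.01) marker levels. The Psen2 log2 fold changes were 0.05 (-0.06 to 0.16), -0.01 (-0.19 to 0.16) and 0.07 (-0.10 to 0.23) in the same order. The bound farthest from 0 among these intervals of the 2 secretase genes was 0.23 on the log2 scale. None of the tests passed the threshold, which does not show that the groups were equal.

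Sorl1, the sorting receptor, reached its highest values in single rats of the WT and HIP groups. The lowest, median and highest normalized counts were 3748, 4299 and 8908 in WT rats, 4024, 4656 and 7506 in HIP rats, and 2811, 3786 and 5925 in AKO rats. The highest WT and HIP values came from 10RT43 and 12RT23, the rats with high cerebellum marker levels, and every HIP rat was above the AKO median. The log2 fold change was 0.26 ± 0.13 (SE; -0.02 to 0.54; limma p = 0.0660, adjusted p = 0.425; permutation p = 0.0881) in HIP vs. AKO, -0.24 (-0.58 to 0.10; p = 0.155) in AKO vs. WT and 0.02 (-0.27 to 0.31; p = 0.886) in HIP vs. WT rats. The HIP vs. AKO value had an unadjusted p under 0.05 when HIP rat 10RT54 (0.29, limma p = 0.0490) or AKO rat 6KAH99 (0.32, p = 0.0211), 7AKO30 (0.31, p = 0.0261) or 7AKO42 (0.31, p = 0.0299) was left out.

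The genes of the Aβ-degrading peptidases did not pass the test in any comparison. Mme had lowest, median and highest normalized counts of 22.95, 45.1 and 79.2 in WT rats, 20.4, 42.4 and 55.2 in HIP rats, and 12.0, 29.998 and 75.4 in AKO rats. It varied most of the 9 genes, with a coefficient of variation of 43.04% over the 30 rats, and its intervals were correspondingly wide: -0.47 (-1.12 to 0.18; limma p = 0.145) in AKO vs. WT, 0.33 (-0.26 to 0.93; p = 0.253) in HIP vs. AKO and -0.14 (-0.61 to 0.33; p = 0.550) in HIP vs. WT rats. The KAH-named and AKO-named knockout rats lay apart here, with Mme means of 49.6 ± 28.4 (SD, n = 4) and 27.03 ± 10.01 (SD, n = 6). Against WT rats, the AKO-named rats alone gave -0.75 (limma p = 0.0207) and the KAH-named rats alone gave -0.06 (p = 0.883), a difference between the names that was not tested. Ide had lowest, median and highest normalized counts of 447, 557 and 666 in WT rats, 476, 543 and 584 in HIP rats, and 354, 504 and 629.6 in AKO rats. The lowest Ide value was that of 4KAH27, the rat with the highest Psen2 value. The Ide log2 fold changes were -0.02 (-0.15 to 0.12) in HIP vs. WT, -0.10 (-0.29 to 0.10) in AKO vs. WT and 0.08 (-0.10 to 0.26) in HIP vs. AKO rats.

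Mapt, the tau gene, had lowest, median and highest normalized counts of 8896, 11819 and 13907 in WT rats, 9291, 12374 and 12765 in HIP rats, and 9772, 12179 and 14050.0 in AKO rats. The groups overlapped throughout, and the lowest WT and HIP values were those of 10RT43 and 10RT46. The log2 fold changes were 0.03 (-0.13 to 0.20) in HIP vs. WT, 0.05 (-0.13 to 0.23) in AKO vs. WT and -0.01 (-0.17 to 0.14) in HIP vs. AKO rats. With the neuron marker level as a covariate, Mapt was 0.19 in AKO vs. WT (limma p = 0.00557) and -0.15 in HIP vs. AKO rats (p = 0.0301). The ratio of Mapt to App normalized counts was 0.413 ± 0.035 (SD, n = 10) in WT, 0.419 ± 0.031 in HIP and 0.453 ± 0.034 in AKO rats, with ranges of 0.372 to 0.483, 0.373 to 0.470 and 0.384 to 0.495.

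The genes differed in how much they varied among rats. Over the 30 rats the coefficient of variation of the normalized count was 9.72% for Psen2, 11.02% for Bace1, 11.2% for Mapt, 11.7% for Ide, 14.2% for App, 22.7% for Apoe, 23.9% for Clu, 27.1% for Sorl1 and 43.04% for Mme. The median over the 11590 genes whose mean was 100 or more was 17.6%. Mme, with a mean of 41.1, is not among those genes. Apoe was 2.65-fold higher in its highest than in its lowest rat, Clu 3.61-fold and App 1.61-fold.

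**Figure D3:**
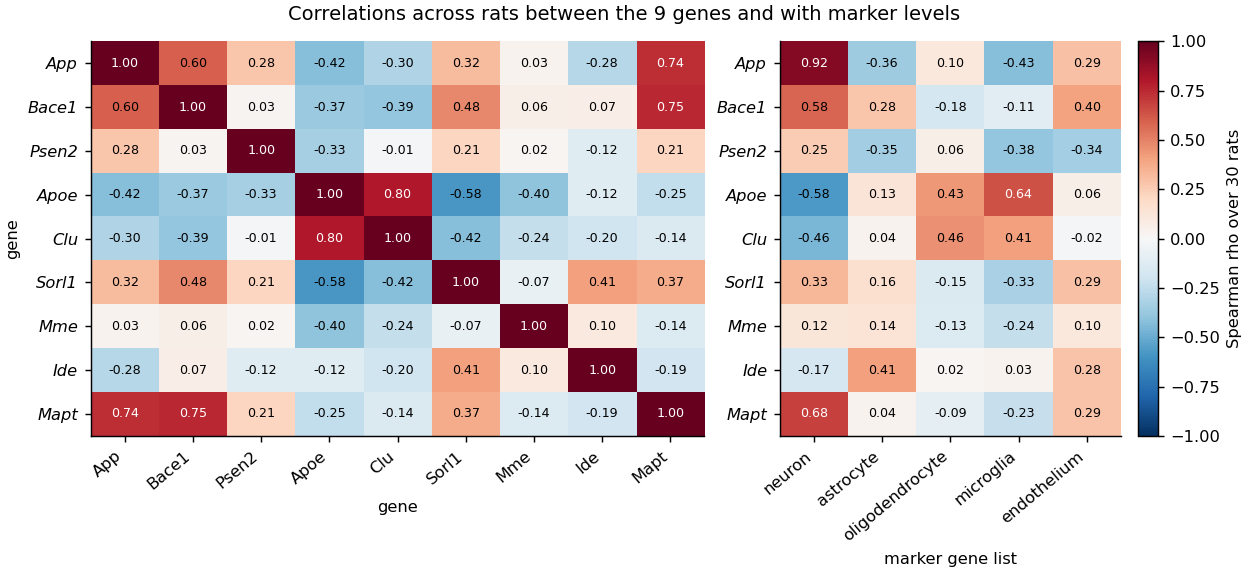
Spearman's rho over the 30 rats between the 9 genes (left) and between each gene and the marker level of 5 cell types (right); rows are genes and color runs from -1 (blue) to 1 (red). App, Bace1 and Mapt correlate with each other and with neuron markers, and Apoe correlates with Clu and inversely with neuron markers.

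The genes fell into patterns of joint variation. These correlations are over the 30 rats, each point being 1 library whose values share a depth and a tissue sample, with permutation p-values adjusted over the 36 relations between the genes and the 117 with marker levels that were computed. App followed the neuron marker level with r = 0.90 and rho = 0.92 (permutation p = 1e-05 for both, the smallest that the permutations give; adjusted p = 0.000191), and r was 0.88 without the 2 rats farthest from the median. App and Mapt had r = 0.81 and rho = 0.74 (permutation p = 1e-05 and 4.00e-05; adjusted p = 0.000191 and 0.000612; r = 0.78 without 2 rats). Mapt followed the neuron level with r = 0.73 and rho = 0.68 (permutation p = 1e-05 and 4.00e-05; adjusted p = 0.000191 and 0.000612; r = 0.69 without 2 rats), and Bace1 followed it with r = 0.63 and rho = 0.58 (permutation p = 0.000130 and 0.000740; adjusted p = 0.00221 and 0.00755; r = 0.61 without 2 rats). Bace1 and Mapt had r = 0.82 and rho = 0.75 (permutation p = 1e-05 for both; adjusted p = 0.000191; r = 0.72 without 2 rats).

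The same genes followed the region markers. App had rho = 0.87 with the neocortex marker level and -0.82 with the choroid plexus level (permutation p = 1e-05 and adjusted p = 0.000191 for both), with r = 0.58 and -0.55 (permutation p = 1e-05 and 0.00114; adjusted p = 0.000191 and 0.0134) and r = 0.86 and -0.82 without the 2 rats farthest from the median. With the neocortex level, Mapt had r = 0.66 and rho = 0.77 (permutation p = 1e-05 for both; adjusted p = 0.000191; r = 0.77 without 2 rats) and Bace1 had r = 0.57 and rho = 0.76 (permutation p = 0.000870 and 1e-05; adjusted p = 0.0111 and 0.000191; r = 0.68 without 2 rats). The rho of Mapt and Bace1 was thus larger with the neocortex level than with the neuron level, a difference that was not tested.

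The rats rich in olfactory bulb markers had less App: 20969 to 29275 normalized counts (median 24841) in those 10 rats against 25463 to 33698 (median 31085) in the 16 others, with overlapping ranges. Within these sets of rats, r with the neuron level was 0.74 and 0.93 for App, 0.62 and 0.42 for Mapt and 0.09 and 0.65 for Bace1. The rho values were 0.71 and 0.92 for App, 0.66 and 0.31 for Mapt and 0.14 and 0.43 for Bace1. With the neocortex level r was 0.72 and 0.86 for App, 0.77 and 0.60 for Mapt and 0.46 and 0.79 for Bace1. There rho was 0.65 and 0.78 for App, 0.77 and 0.34 for Mapt and 0.52 and 0.72 for Bace1. For App with the choroid plexus level r was -0.75 and -0.70 and rho -0.79 and -0.64. App and Mapt had r = 0.88 and 0.48 (rho = 0.79 and 0.29), and Bace1 and Mapt had r = 0.61 and 0.80 (rho = 0.62 and 0.62). App and Bace1 had r = 0.28 and 0.70 (rho = 0.15 and 0.48). The differences between the sets were not tested.

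**Figure D4:**
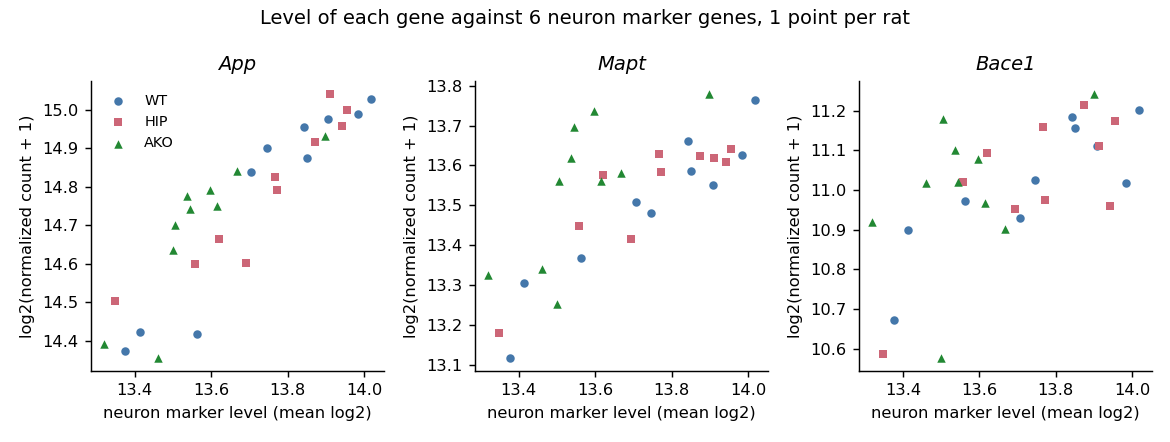
Log2(normalized count + 1) of App, Mapt and Bace1 (vertical axes) against the neuron marker level (horizontal axes, mean log2 of 6 genes), 1 point per rat, by group. App rises with the marker level in all groups, and the AKO points of Mapt tend to lie above the WT and HIP points at the same level.

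Apoe and Clu had r = 0.82 and rho = 0.80 (permutation p = 1e-05 for both; adjusted p = 0.000191), with r = 0.75 without 10RT43 and 6KAH98. Within the sets with high and low olfactory bulb levels, r was 0.69 and 0.92 and rho was 0.64 and 0.89. Apoe ran against Sorl1, with r = -0.60 and rho = -0.58 (permutation p = 0.000670 and 0.00104; adjusted p = 0.00932 and 0.00972; r = -0.55 without 10RT43 and 12RT23), and within the sets r was -0.47 and -0.59. It also ran against the neuron marker level, with r = -0.53 and rho = -0.58 (permutation p = 0.00214 and 0.00108; adjusted p = 0.0187 and 0.00972; r = -0.48 without 2 rats), and within the sets r was -0.67 and -0.79. Within the sets rho was -0.65 and -0.49 with Sorl1 and -0.50 and -0.56 with the neuron level. As deviations from the mean of each genotype group, r with the neuron level was -0.40 and rho -0.41. The values over all rats thus include the group difference. With the microglia marker level, Apoe had r = 0.52 and rho = 0.64 (permutation p = 0.00408 and 0.000230; adjusted p = 0.0271 and 0.00320; r = 0.53 without 2 rats). Neither Apoe nor Clu followed the astrocyte level (r = 0.11 and -0.01, rho = 0.13 and 0.04; adjusted permutation p of 0.690 or more). With the oligodendrocyte level r was 0.37 for Apoe and 0.43 for Clu (adjusted permutation p = 0.168 and 0.0948), and rho was 0.43 and 0.46 (0.0900 and 0.0638). Psen2 and Ide correlated with astrocyte markers (r = -0.48 and 0.56; adjusted permutation p = 0.0422 and 0.0141), while rho was -0.35 and 0.41 (adjusted permutation p = 0.173 and 0.104). Without 4KAH27 and 4KAH35 r was -0.09 and 0.31, so the relations rest on those rats. Endothelium markers gave r = -0.57 for Psen2 and 0.52 for Ide (adjusted permutation p = 0.0187 and 0.0313; rho = -0.34 and 0.28), and r = -0.16 and 0.18 without the same rats. Psen2 also had r = -0.54 with microglia markers (adjusted permutation p = 0.0263; rho = -0.38; r = -0.32 without 4KAH27 and 10RT43).

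**Figure D5:**
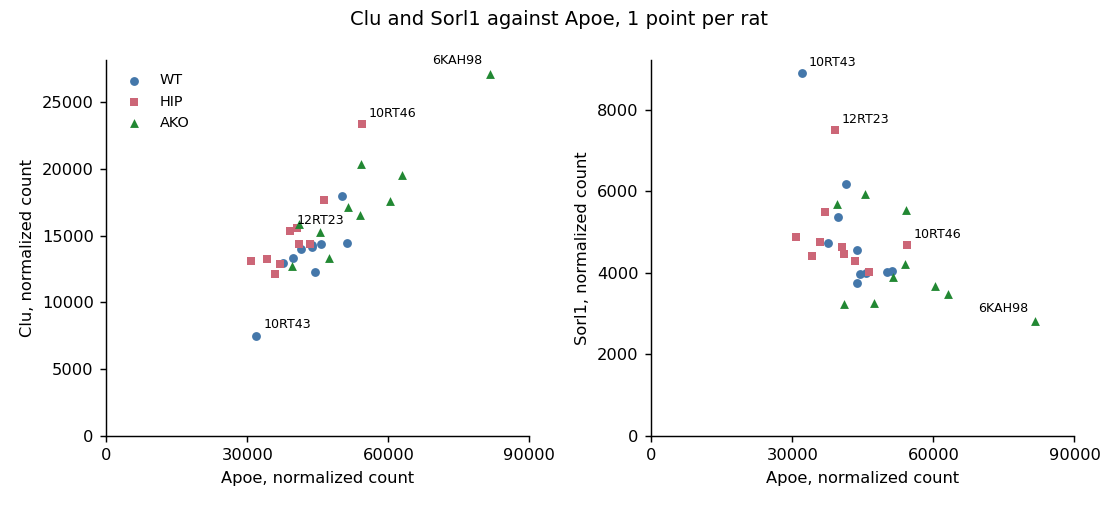
Clu (left) and Sorl1 (right) against Apoe, both axes in normalized counts from 0, 1 point per rat, by group. Clu rises with Apoe in all groups up to AKO rat 6KAH98, while the highest Sorl1 values, in 10RT43 and 12RT23, lie at low Apoe.

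The Spearman correlations over the 30 rats were also ranked over 10378 genes with a symbol and a mean of at least 100. The genes most like App were Nkiras1, Pcmt1 and Mapk8ip3 (rho = 0.94 for each), those most like Bace1 were Sez6l, Csmd1 and Apba2 (0.91, 0.88 and 0.88), and those most like Mapt were Camk2a, Map1a and Gabbr2 (0.91, 0.88 and 0.87). Sez6l is a substrate of BACE1, Apba2 binds the precursor protein, and Camk2a is a kinase of excitatory neurons. For Apoe they were Slc25a1, Cd82 and Sox10 (0.88, 0.85 and 0.83) and for Clu they were Cnih2, Gstm2 and Cd82 (0.89, 0.88 and 0.82). Sox10 is a transcription factor of oligodendrocytes, and Slc25a1 carries citrate out of mitochondria for lipid synthesis. For Sorl1 they were Smarca2, Herc1 and Adcy1 (0.82, 0.82 and 0.81), for Ide Nfatc3, Chd7 and Zfyve16 (0.79, 0.78 and 0.75), and for Mme Ppp4r4, Ric8b and Strn (0.71, 0.70 and 0.70). Psen2 had the weakest neighbours, Usp20, Nub1 and Wtap (0.62, 0.59 and 0.59), which ranked 28, 64 and 21 without 10RT43, 10RT46 and 7AKO19. Without these rats Smarca2 and Adcy1 ranked 30 and 72 for Sorl1, Cd82 ranked 26 for Clu and 10 for Apoe, Sox10 ranked 19 for Apoe and Gabbr2 ranked 10 for Mapt, while the other genes named ranked 8 or better.

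Of 74 other genes of the same pathways, 5 were higher and none lower in AKO vs. WT rats at an unadjusted p under 0.05, 1 was higher and 4 lower in HIP vs. AKO rats, and none was higher and 1 lower in HIP vs. WT rats. These are 6.76%, 6.76% and 1.35% of the 74, below the 9.34%, 12.7% and 2.57% of all genes tested, so the genes named from these lists are single values and not a result about the lists. None had an adjusted p under 0.05. The median log2 fold change of the 74 genes was -0.00074, -0.0031 and 0.019 in the same order, and that of all genes tested was 0.0014, 0.0047 and 0.0018.

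By list, the 9 other secretase genes, Ncstn and Adam10 among them, had no gene past the threshold in any comparison, and neither had the 10 sorting genes. Of 8 relatives and partners of the precursor, Itm2c, a BRI2-family membrane protein that binds it, was higher in AKO vs. WT (0.21 ± 0.08 SE, limma p = 0.0204, adjusted p = 0.437) and lower in HIP vs. AKO rats (-0.29 ± 0.07, p = 0.000824, adjusted p = 0.119). Of 10 other Aβ-degrading enzymes, the matrix metalloproteinases Mmp2 and Mmp14 were higher in AKO vs. WT rats (0.44 and 0.59, p = 0.0254 and 0.0459). Mmp2 was at 25.1 in 10RT43 and 161 in 10RT46, and between 48.6 and 104.7 in the other rats.

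Of 14 genes of lipoprotein and Aβ transport, Cst3, the secreted protease inhibitor cystatin C, was higher in AKO vs. WT (0.26 ± 0.11 SE, limma p = 0.0229) and lower in HIP vs. AKO rats (-0.35 ± 0.10, p = 0.00236, adjusted p = 0.176), with normalized counts of 21736 to 30563 in WT, 19972 to 30053 in HIP and 24176 to 42983 in AKO rats. The lipoprotein receptor Vldlr was higher in HIP vs. AKO rats (0.23, p = 0.0143), and Ager, which encodes the receptor RAGE that carries Aβ into the brain, was lower in HIP vs. WT rats (-0.60 ± 0.25 SE, limma p = 0.0262, adjusted p = 0.9993). Ager rested on low values, 7.33 to 28.2 normalized counts in HIP and 13.7 to 59.8 in WT rats, the highest being 10RT43. Lrp1, the receptor that carries Aβ out of the brain, had normalized counts of 6186 ± 1151 (SD, n = 10) in WT, 5707 ± 816 in HIP and 5848 ± 1374 in AKO rats, and log2 fold changes of -0.11 (95% interval -0.32 to 0.11; limma p = 0.308) in HIP vs. WT, -0.10 (-0.40 to 0.19; p = 0.481) in AKO vs. WT and -0.01 (-0.28 to 0.27; p = 0.966) in HIP vs. AKO rats.

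Of 15 genes that act on tau, mostly kinases, the microtubule affinity-regulating kinase Mark4 was higher in AKO vs. WT (0.24 ± 0.10 SE, limma p = 0.0242) and lower in HIP vs. AKO rats (-0.18 ± 0.09, p = 0.0488). Of 8 other microtubule genes, Map7d1 was lower in HIP vs. AKO rats (-0.17 ± 0.07, p = 0.0277). Gsk3b and Cdk5, kinases of tau, did not pass the test in any comparison, with log2 fold changes of 0.12 and 0.01 in HIP vs. WT rats.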

How the data were processed

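RNA from brain tissue, labelled frontal cortex, of 30 rats was sequenced by the authors after library preparation with the SMARTer mRNA-Seq kit. The study's text also names the cerebral cortex and the hippocampus as source. Alignment to rn7, counting on Ensembl release 105 and DESeq2 normalization were run by the authors in Partek Flow. The submitters' processing notes name Partek 10.0.22.0228, Bowtie2, STAR 2.7.8a and DESeq2. What was deposited is a signal, the normalized count of each gene in each rat. Use of strand in the counting is not stated. In RefSeq, App, Bace1, Mme, Ide, Mapt and Clu overlap other genes (Rnf214 for Bace1, Kif11 for Ide, Scara3 for Clu, otherwise noncoding RNAs or pseudogenes), so their counts can include reads of these.

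Groups were taken from the genotype labels. Whole reads were not recovered, since only 80.8% to 84.6% of the low values were whole multiples (tolerance 0.02) of 1 read, and no count test was run. limma 3.58.1 in R 4.3.3 (lmFit, eBayes with trend, two-sided) was fitted to log2(normalized count + 1) of the rats of the 2 groups, over genes whose mean was 1 or more, with Benjamini-Hochberg adjustment. The threshold was 0.05, and intervals are 95%. Estimated reads cover counting error only. No label says that rats came from separate litters.

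Permutation tests used 100000 resamples in Python 3.11.15 with numpy 2.4.6 and scipy 1.17.1. On simulated data for HIP vs. WT with 17015 genes, the fit recovered 200 of 200 genes changed 2-fold and called 6 unchanged genes. The simulated counts had the same dispersion for every gene and no differences in brain region between libraries. Smaller changes were not simulated, so the result does not give the power for such changes in these rats. The genes, gene lists and marker lists were chosen with earlier results of these data known. Of the pathway lists, genes under the unadjusted threshold are named, at most 8 per comparison, and Lrp1 in any case; Ncstn, Adam10, Gsk3b and Cdk5 were named after their values were seen, as were the rats that stand apart. Values of some single genes of these lists are not reported here. The alternatives were pseudocounts of 0.1 and 5, no filter or one at a mean of 10, all 30 rats in 1 fit, median-ratio rescaling, quantile normalization, sample-quality weights, the run library number or striatum marker level as a covariate, the KAH-named or AKO-named rats alone, a permutation test, and leaving out each rat or the rats 10RT43, 10RT46 and 7AKO19. Leaving out 12RT23 as well and the olfactory bulb, neuron and microglia marker levels as covariates were chosen after seeing the data. The marker genes Cldn5, Flt1, Rasgrf2, Lct, Hba-a1, Hbb and Alas2 had no match by symbol and were left out.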

Additional observations from a re-analysis of the deposited data

Results flagged for a closer look

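A single rat stood apart from the other 9 of its group in 6 of 27 sets of values (9 genes in 3 groups), by Dixon's 95% limit on the gap to the nearest rat over the range of a group of 10. Chance flags about 1 in 20 sets, or 1.35 of 27. HIP rat 10RT46 was the lowest of its group in Bace1, with 1538 normalized counts against 1982 to 2374 in the others, and in Mapt, with 9291 against 10928 to 12765, and it was the highest in Clu, with 23377 against 12143 to 17709. This rat had the pineal marker level of 10.2 and the choroid plexus level of 9.09. AKO rat 6KAH98 was the highest of its group in Clu, with 27174 against 12769 to 20411, and it also had the highest Apoe and the lowest Sorl1 of all rats. Sorl1 was high in WT rat 10RT43, with 8908 against 3748 to 6168, and in HIP rat 12RT23, with 7506 against 4024 to 5496. These were the rats with cerebellum marker levels of 13.2 and 10.1. The part of these marker levels in the values was not tested.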

How the results depend on the processing

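Of the alternatives, counting each rat left out as one, Apoe kept an unadjusted p under 0.05 in 37 of 38 in AKO vs. WT and in 37 of 38 in HIP vs. AKO rats, the exception being the neuron marker level as a covariate, and Clu kept it in 37 of 38 in AKO vs. WT rats, the exception being the AKO-named rats alone (0.28, p = 0.0806). None of the 9 genes had an adjusted p under 0.05 except under sample-quality weights, where Apoe and Clu in AKO vs. WT (0.0307 and 0.0399) and Apoe in HIP vs. AKO rats (0.00574) did, along with 857 and 1143 genes in all. The cause was not tested.

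The 3 or 4 rats that stand apart include 10RT43 and 10RT46, the lowest WT and the highest HIP rat in Apoe. In HIP vs. WT rats the count of the 9 genes past the unadjusted threshold was 1, Apoe, without the 3 or the 4 rats. In HIP vs. AKO rats it was 2 under quantile normalization (with App), the striatum covariate (with Mme), the KAH-named rats alone (with Sorl1), the AKO-named rats alone (with Mme) and without the 3 or the 4 rats (with Clu), and 3 under sample-quality weights (with Clu and Mme). In AKO vs. WT rats it was 3 under sample-quality weights (with Mme) and otherwise 2, which were Mme and Apoe for the AKO-named rats alone and Clu and Mapt with the neuron level. With the neuron level Mapt also took the place of Apoe in HIP vs. AKO rats. Leaving out 1 rat gave 0 in HIP vs. WT, 2 in AKO vs. WT and 1 to 2 in HIP vs. AKO rats, where leaving out HIP rat 10RT54 or AKO rat 6KAH99, 7AKO30 or 7AKO42 brought in Sorl1 (p = 0.0490, 0.0211, 0.0261 and 0.0299) and leaving out 10RT46 brought in Clu (p = 0.0244).

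Signs turned in values that had not passed the test as reported. Of these, App, Mme and Mapt passed it under other alternatives with the sign opposite to the turned value, App and Mme in HIP vs. AKO rats and Mapt, with the neuron level, in both comparisons with AKO rats (0.19 and -0.15). In HIP vs. WT rats the sign of the log2 fold change turned to -0.053 (App), -0.027 (Bace1), -0.014 (Mapt) with sample-quality weights, -0.048 (App), -0.0080 (Bace1), -0.016 (Sorl1) with the run library number, -0.043 (Sorl1) with the striatum level, -0.0012 (App), 0.0010 (Ide) without 3 rats and -0.0016 (App), -0.0060 (Clu) without 4 rats. In AKO vs. WT rats the sign of the log2 fold change turned to -0.0015 (Mapt) without 3 rats, -0.0015 (Mapt) without 4 rats, -0.066 (Mapt) with the KAH-named rats, 0.054 (Bace1), 0.0094 (Psen2) with the AKO-named rats, 0.10 (App), 0.084 (Bace1), 0.035 (Psen2) with the neuron level and 0.0065 (Psen2) with the microglia level. In HIP vs. AKO rats the sign of the log2 fold change turned to 0.033 (Mapt) without 3 rats, 0.026 (Mapt) without 4 rats, -0.075 (Mme), 0.10 (Mapt) with the KAH-named rats, -0.046 (Bace1) with the AKO-named rats and -0.074 (App), -0.085 (Bace1) with the neuron level. Leaving out 1 rat at a time gave ranges that crossed 0, -0.050 to 0.12 (Sorl1), -0.033 to 0.044 (App), -0.030 to 0.057 (Bace1), -0.049 to 0.014 (Ide), -0.0071 to 0.074 (Mapt) in HIP vs. WT rats, and -0.054 to 0.031 (Bace1), -0.064 to 0.020 (Psen2) in AKO vs. WT rats, and -0.046 to 0.025 (Mapt), -0.023 to 0.073 (Bace1) in HIP vs. AKO rats.

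The age of the AKO rats, where it differs, cannot be told apart from the group. The regions in the libraries varied within each group. Apoe kept an unadjusted limma p under 0.05 in both comparisons with AKO rats with the olfactory bulb or striatum level as a covariate. It also did so without the 3 or 4 rats that stand apart, but not with the neuron level (p = 0.0739 and 0.0509). Over the 30 rats Apoe had rho = -0.57 with the neocortex level and 0.48 with the choroid plexus level (adjusted permutation p = 0.0111 and 0.0505). The r values were 0.09 and 0.31 (adjusted permutation p = 0.765 and 0.221), and -0.66 and 0.20 without the 2 rats farthest from the median. As deviations from the mean of each genotype group, rho was -0.24 and 0.40. Neither level was used as a covariate, and the part of the regions in the Apoe values was not tested. Mme was limited by its depth, and no test of whole counts was possible.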

Other observations

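The ratio of Clu to Apoe normalized counts was 0.314 ± 0.038 (SD, n = 10) in WT, 0.377 ± 0.034 in HIP and 0.328 ± 0.034 in AKO rats, with ranges of 0.235 to 0.359, 0.333 to 0.431 and 0.282 to 0.387. The lowest WT ratio was that of 10RT43 and the highest HIP ratio that of 10RT46. The ratio was looked at after the values of both genes were seen, and the groups overlapped, so no test was made.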
